A study of Mus musculus with 2 samples.

Results

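The genes described here encode the nuclear subunits of respiratory complexes I, II and III and of ATP synthase, which is complex V, in adrenal gland taken from male mice 10 days after birth. They were taken by name from GENCODE M21: protein-coding genes whose symbols begin with Ndufa, Ndufb, Ndufc, Ndufs, Ndufv, Uqcr or Atp5, and Sdha to Sdhd. The rule took 76 of 55536 annotated genes, or 76 of 22015 nuclear protein-coding genes, under 75 symbols, since Atp5o names 2 loci. Of these, 64 are structural subunits: 36 of complex I, 4 of complex II, 8 of complex III and 16 of complex V. The other 12 are 8 complex I assembly factors (Ndufaf genes), Ndufa4, Ndufa4l2, Atp5s and the second Atp5o locus. Ndufa4 was named for complex I and is now counted as a subunit of cytochrome c oxidase. The assignment to complexes follows textbook knowledge and not the files.

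Total RNA of adrenal gland was sequenced in 2 libraries from male B6Cast F1 mice (strain B6CASTF1/J, a hybrid of the C57BL/6 and CAST strains). Each used 300 ng of RNA, added ERCC spike-in controls and a directional kit that reduces ribosomal RNA. The libraries are labelled biological replicates 2 and 1 of a single group, so there is no treatment or genotype to compare and no test between groups. The sample labels number the animals 04 for replicate 2 and 03 for replicate 1, but the library labels name animal 03 for both and the donor identifier is shared, so the spread between the libraries may be technical. The gene tables held 38984236 expected counts in replicate 2 and 36982665 in replicate 1, and intervals below cover counting error only. Levels are given as TPM, a share of all transcripts that is corrected for transcript length, and unless stated otherwise they come from the gene table. With 1 group of 2 libraries, no p-value is given.

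Complex I passes electrons from NADH to ubiquinone and pumps protons across the inner mitochondrial membrane, complex II passes electrons from succinate to ubiquinone without pumping, and complex III passes them on to cytochrome c while pumping. Complex V lets the protons flow back through its membrane ring and uses the flow to make ATP. In steroid-producing cells the mitochondria also hold the first and last enzymes of corticosteroid synthesis. Complexes I, III and V each combine nuclear subunits with a few encoded by mitochondrial DNA, whereas all of complex II is nuclear.

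The tissue label was checked against marker genes. All 6 cortex and all 5 chromaffin markers exceeded 1 TPM in both libraries, with cortex sums of 3610 TPM in replicate 2 and 4038 in replicate 1 and chromaffin sums of 1236 TPM in replicate 2 and 1484 in replicate 1. All 5 brown adipocyte markers were also present, with a sum of 3031 TPM in replicate 2 and 3430 in replicate 1. Ucp1, the uncoupling protein that defines brown fat, was at 1149 TPM in replicate 2 and 1566 in replicate 1. The list did not move together. Cidea had 440 TPM in replicate 2 and 434 in replicate 1, and Cox8b had 950 in replicate 2 and 924 in replicate 1. Cox7a1 had 490 TPM in replicate 2 and 501 in replicate 1. Elovl3 was low, with 3.43 TPM in replicate 2 and 4.69 in replicate 1. All 5 liver markers and all 5 skeletal muscle markers lay more than 2-fold higher in replicate 2. Liver markers summed to 12736 TPM in replicate 2 and 4035 in replicate 1, and muscle markers to 785 TPM in replicate 2 and 289 in replicate 1. The 5 kidney markers summed to 0.480 TPM in replicate 2 and 0.790 in replicate 1, and 3 of them were at 0 in both libraries. Brown fat, muscle and liver are rich in mitochondria, and their part in the levels below was not tested. In a bulk sample, more cells of a type and more RNA per cell cannot be told apart.

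Of the 76 genes, 75 reached 1 TPM in both libraries, against 56.7% of nuclear protein-coding genes. The exception was the second Atp5o locus (chr16:91684398-91926982), with 0.200 TPM (3.23 expected counts) in replicate 2 and 0 in replicate 1, where a count of 0 allows up to 3. Of the 31-base stretches of its transcript, 94% also occur in another gene, so its own level is poorly resolved. The second quantification described below gave it 9.27 counts in replicate 2 and 2.0e-06 in replicate 1. The structural subunits had a median level of 209 TPM, against 9.69 TPM for the 12487 nuclear protein-coding genes above 1 TPM. All but Atp5g2, 63 of 64, stood above the 90th percentile of those genes, which was 46.9 TPM. Together the subunits took 4.68% of nuclear protein-coding TPM in replicate 2 and 4.91% in replicate 1.

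By complex, the subunits of complex III were the most abundant. Their median was 384 TPM in replicate 2 and 379 in replicate 1 (mean 381 ± 3.61, SD, n = 2). Complex V had medians of 252 TPM in replicate 2 and 240 in replicate 1 (246 ± 8.60, SD, n = 2). Complex II had 244 TPM in replicate 2 and 232 in replicate 1 (238 ± 8.31, SD, n = 2). Complex V was thus slightly the higher of these neighbours within each library of the gene table, although their ranges over the libraries overlapped. Complex I was lowest, at 159 TPM in replicate 2 and 167 in replicate 1 (163 ± 5.36, SD, n = 2). On the log2 scale complex III exceeded complex I by 1.27 in replicate 2 and 1.18 in replicate 1, and complex V exceeded it by 0.66 in replicate 2 and 0.52 in replicate 1. Complex II exceeded it by 0.61 in replicate 2 and 0.48 in replicate 1. In the second quantification described below, the ranges of complexes V and II did not overlap. Its deposited TPM is on another scale, with a median log2 ratio to the gene table of 0.63 over nuclear protein-coding genes. Its levels should therefore not be compared directly with those of the gene table. In that quantification the median of complex V was 434 TPM in replicate 2 and 466 in replicate 1. That of complex II was 326 in replicate 2 and 346 in replicate 1. The log2 margin over complex I was 0.65 for complex V and 0.23 for complex II in that table. In the gene table, levels within complex II spanned 1.40-fold, within complex III 2.98-fold, within complex I 7.08-fold and within complex V 157-fold. The lowest values of complexes V and I are those of Atp5g2 and Ndufb4, whose counts the gene table divides with pseudogenes, as described below. In the second quantification Atp5g2 had 284 TPM in replicate 2 and 296 in replicate 1, and Ndufb4 had 348 in replicate 2 and 353 in replicate 1.

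**Figure D1:**
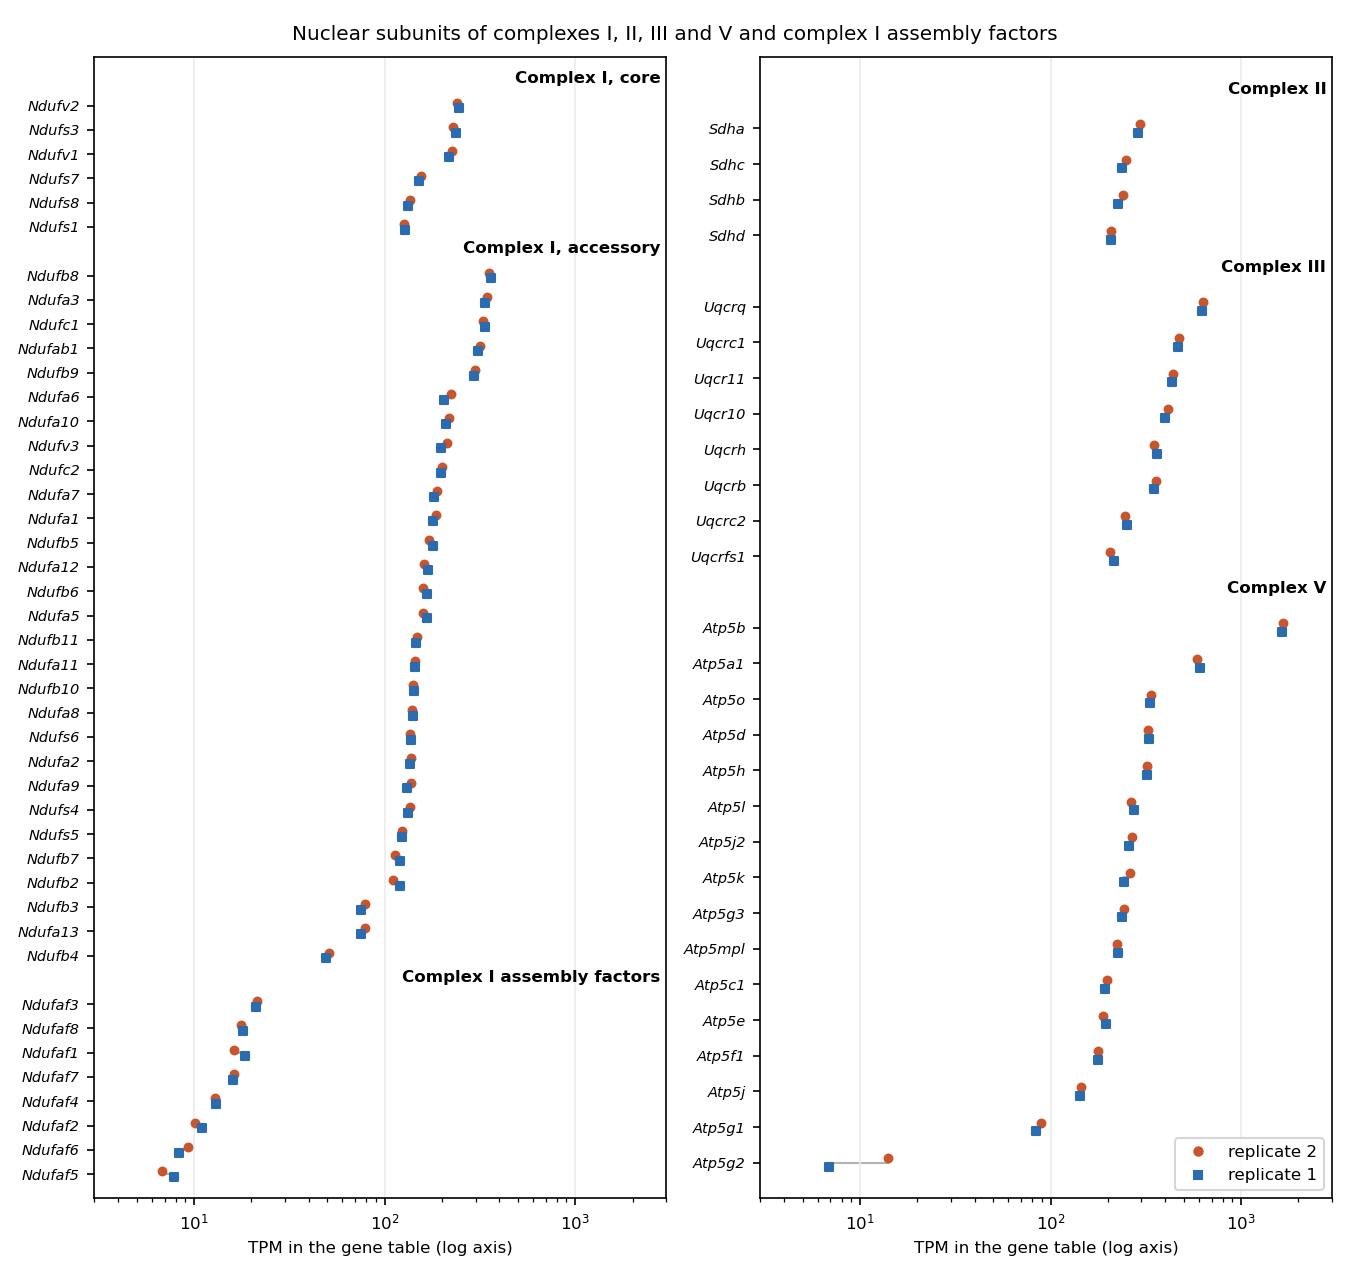
Level (TPM, log axis) of the structural subunits and Ndufaf assembly factors shown, in replicate 2 (orange circles) and replicate 1 (blue squares), sorted by mean level within each class. Most pairs of points nearly coincide, Atp5g2 is the one subunit with widely separated points, and the assembly factors lie between 6.79 and 21.3 TPM, below every subunit except Atp5g2.

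The 7 nuclear core subunits of complex I carry its flavin and iron-sulfur centres and the quinone site, and are shared with bacterial forms of the enzyme. Their median was 227 TPM in replicate 2 and 218 in replicate 1, against 159 in replicate 2 and 166 in replicate 1 for the 29 accessory subunits. The log2 difference was 0.52 in replicate 2 and 0.39 in replicate 1. The core median was thus the higher in both libraries, while single genes of the groups overlapped.

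Ndufv1, which binds NADH and the flavin, had 227 TPM in replicate 2 and 218 in replicate 1. Its partner Ndufv2 had 241 TPM in replicate 2 and 245 in replicate 1. Ndufs3, a subunit of the arm that links this module to the membrane, lay between them with 230 TPM in replicate 2 and 237 in replicate 1. Lower levels were measured for Ndufs7, Ndufs8 and Ndufs1. Ndufs7, which carries an iron-sulfur cluster near the quinone site, had 156 TPM in replicate 2 and 152 in replicate 1. Ndufs8, which carries 2 further clusters, had 136 TPM in replicate 2 and 133 in replicate 1. Ndufs1, the largest core subunit encoded in the nucleus, was the lowest with 126 TPM in replicate 2 and 128 in replicate 1.

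Accessory subunits surround the core and are needed for assembly and stability. The highest was Ndufb8, a membrane arm subunit, with 351 TPM in replicate 2 and 360 in replicate 1. Ndufa3, at the base of the peripheral arm, had 345 TPM in replicate 2 and 335 in replicate 1. Ndufc1, another membrane arm subunit, had 328 TPM in replicate 2 and 335 in replicate 1. Ndufa3 and Ndufc1 did not differ beyond their spread. The lowest was Ndufb4 with 51.0 TPM in replicate 2 and 49.4 in replicate 1, and its counts are shared with a pseudogene, as described below. Ndufa13, also known as GRIM-19, had 78.6 TPM in replicate 2 and 74.7 in replicate 1, and Ndufb3, a small membrane arm subunit, was level with it at 78.5 TPM in replicate 2 and 74.99 in replicate 1. All other accessory subunits had means between those of Ndufb2 (116 TPM) and Ndufab1 (312 TPM).

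The Ndufaf genes encode factors that help build complex I and are not part of the finished enzyme. Their median was 14.6 TPM in replicate 2 and 14.5 in replicate 1, and the complex I subunits exceeded it by 3.45 in replicate 2 and 3.53 in replicate 1 on the log2 scale. Ndufaf3 had 21.3 TPM in replicate 2 and 21.1 in replicate 1. Ndufaf8 had 17.6 TPM in replicate 2 and 18.0 in replicate 1. Ndufaf3 was the highest of the group in both libraries, and no assembly factor reached the level of any complex I subunit. Ndufaf1, a factor for the membrane arm, had 16.2 TPM in replicate 2 and 18.6 in replicate 1. Ndufaf7, a methyltransferase, had 16.2 TPM in replicate 2 and 16.0 in replicate 1. Ndufaf4, an assembly partner of Ndufaf3, had 12.94 TPM in replicate 2 and 12.97 in replicate 1. The remaining factors were lower still. Ndufaf2 had 10.1 TPM in replicate 2 and 11.1 in replicate 1. Ndufaf6 had 9.30 TPM in replicate 2 and 8.32 in replicate 1. Ndufaf5, a hydroxylase that acts on Ndufs7, was the lowest with 6.79 TPM in replicate 2 and 7.82 in replicate 1.

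Complex II, succinate dehydrogenase, also belongs to the citric acid cycle. Sdha, its flavoprotein, was the highest with 294 TPM in replicate 2 and 288 in replicate 1. Sdhb, the iron-sulfur subunit, had 240 TPM in replicate 2 and 227 in replicate 1. Sdhc, a membrane anchor, had 248 TPM in replicate 2 and 237 in replicate 1, overlapping Sdhb. Sdhd, the other anchor, had 208 TPM in replicate 2 and 207 in replicate 1. Sdha thus stood above and Sdhd below the other two in both libraries of the gene table. In the second quantification Sdhb was the highest with 418 TPM in replicate 2 and 422 in replicate 1, against 373 and 394 for Sdha. Sdhc was the lowest there with 221 TPM in replicate 2 and 230 in replicate 1, against 279 and 298 for Sdhd.

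In complex III, Uqcrq, a small subunit bound to cytochrome b, was the highest with 629 TPM in replicate 2 and 625 in replicate 1. The core protein Uqcrc1 had 472 TPM in replicate 2 and 464 in replicate 1. Its partner Uqcrc2 had 247 TPM in replicate 2 and 253 in replicate 1, although the complex holds both proteins in equal number. The ranges of these partners did not overlap. Among the small subunits, Uqcr11 had 439 TPM in replicate 2 and 435 in replicate 1. Uqcr10 had 411 TPM in replicate 2 and 397 in replicate 1. Both lay between the core proteins. Uqcrh, the hinge protein, had 349 TPM in replicate 2 and 360 in replicate 1. Uqcrb, which helps bind ubiquinone, had 356 TPM in replicate 2 and 347 in replicate 1, and these neighbours did not differ beyond the spread. Uqcrfs1, the Rieske iron-sulfur protein, was the lowest with 206 TPM in replicate 2 and 215 in replicate 1. Cyc1, the cytochrome subunit that the name rule does not take, had 276 TPM in replicate 2 and 288 in replicate 1, within the range of the others.

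The catalytic head of complex V, F1, holds the alpha and beta subunits in a ring of alternating pairs. Atp5b, the catalytic beta subunit (chr10:128083273-128090391, plus strand, mm10), was the highest of all 76 genes with 1659 TPM in replicate 2 and 1630 in replicate 1. Atp5a1, the alpha subunit, had 586 TPM in replicate 2 and 609 in replicate 1. Atp5b thus exceeded Atp5a1 2.83-fold in replicate 2 and 2.68-fold in replicate 1, although the enzyme holds both in equal number. Atp5d, the delta subunit, had 326 TPM in replicate 2 and 330 in replicate 1. Atp5c1, the gamma subunit that forms the rotating shaft, had 198 TPM in replicate 2 and 193 in replicate 1. Atp5e, the epsilon subunit, had 189 TPM in replicate 2 and 197 in replicate 1, overlapping Atp5c1. The peripheral stalk, which holds the head still, showed a median of 249 TPM in replicate 2 and 248 in replicate 1. Atp5o, which joins the stalk to the head, led it with 338 TPM in replicate 2 and 335 in replicate 1, and Atp5h had 321 TPM in replicate 2 and 319 in replicate 1. Atp5f1, the b subunit, had 177 TPM in each library, and Atp5j had 145 TPM in replicate 2 and 142 in replicate 1, so the stalk means spanned 2.34-fold. The 4 other membrane subunits ranged from 224 to 270 TPM in their means, a 1.20-fold span.

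The c subunit forms the proton-driven ring of complex V and is encoded by 3 genes, Atp5g1, Atp5g2 and Atp5g3. Their precursors differ in the import signal that is cut off, while the last 75 codons, the length of the mature protein, gave the same residue in all 3 genes at all 75 positions. The bases differ: over these 225 bases Atp5g1 and Atp5g2 were 84.9% identical, Atp5g1 and Atp5g3 80% and Atp5g2 and Atp5g3 78.7%. The last 120 coding bases before the stop codon are shown because they carry the differences by which reads can be assigned to a gene, with capitals at bases that differ from Atp5g2, from GENCODE M21 transcripts (mm10). The fourth line is Gm10175, annotated as a transcribed processed pseudogene, a gene copy made from spliced RNA.
Atp5g2: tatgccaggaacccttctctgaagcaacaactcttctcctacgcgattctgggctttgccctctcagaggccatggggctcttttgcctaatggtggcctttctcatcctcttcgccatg
Atp5g1: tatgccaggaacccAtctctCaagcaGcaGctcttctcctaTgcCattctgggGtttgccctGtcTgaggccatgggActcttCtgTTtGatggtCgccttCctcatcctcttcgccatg
Atp5g3: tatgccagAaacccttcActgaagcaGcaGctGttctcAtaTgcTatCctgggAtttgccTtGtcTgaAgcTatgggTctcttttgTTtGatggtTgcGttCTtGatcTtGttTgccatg
Gm10175: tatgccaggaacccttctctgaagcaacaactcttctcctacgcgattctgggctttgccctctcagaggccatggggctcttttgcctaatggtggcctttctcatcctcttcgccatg

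Atp5g1 differs from Atp5g2 at 16 of the 120 bases and Atp5g3 at 27, whereas Gm10175 differs at 0. The Atp5g2 stretch lies on chr15:102663017-102665061 and spans an intron, as do those of Atp5g1 on chr11:96073107-96073530 and Atp5g3 on chr2:73908596-73909191. That of Gm10175 is unbroken on chr7:23946795-23946914, and all 4 are on the minus strand. All 615 of the 31-base words of Gm10175 occur in Atp5g2 transcripts, and 87.7% of the words of the main Atp5g2 transcript occur in another gene. Stretches of that length therefore do not tell the loci apart over the whole of the annotated pseudogene.

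The gene table gave most of the counts to the pseudogene. Atp5g2 had 328 expected counts in replicate 2 and 156 in replicate 1, against 3538 in replicate 2 and 3501 in replicate 1 for Gm10175. Thus Atp5g2 held 8.48% of the sum with its pseudogenes in replicate 2 and 4.28% in replicate 1. The second deposited quantification, made by the authors from the reads and a transcript index without the alignments, placed them the other way round. It gave Atp5g2 3447 counts in replicate 2 and 3260 in replicate 1 and Gm10175 0 in replicate 2 and 64.5 in replicate 1. Atp5g2 then held 100% of the sum in replicate 2 and 98.1% in replicate 1. Summed over gene and pseudogenes, replicate 2 had 3447 counts in the second table and 3866 in the gene table, and replicate 1 had 3324 in the second table and 3657 in the gene table. The sum was thus close in both tables, while the division between the loci was nearly reversed.

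**Figure D2:**
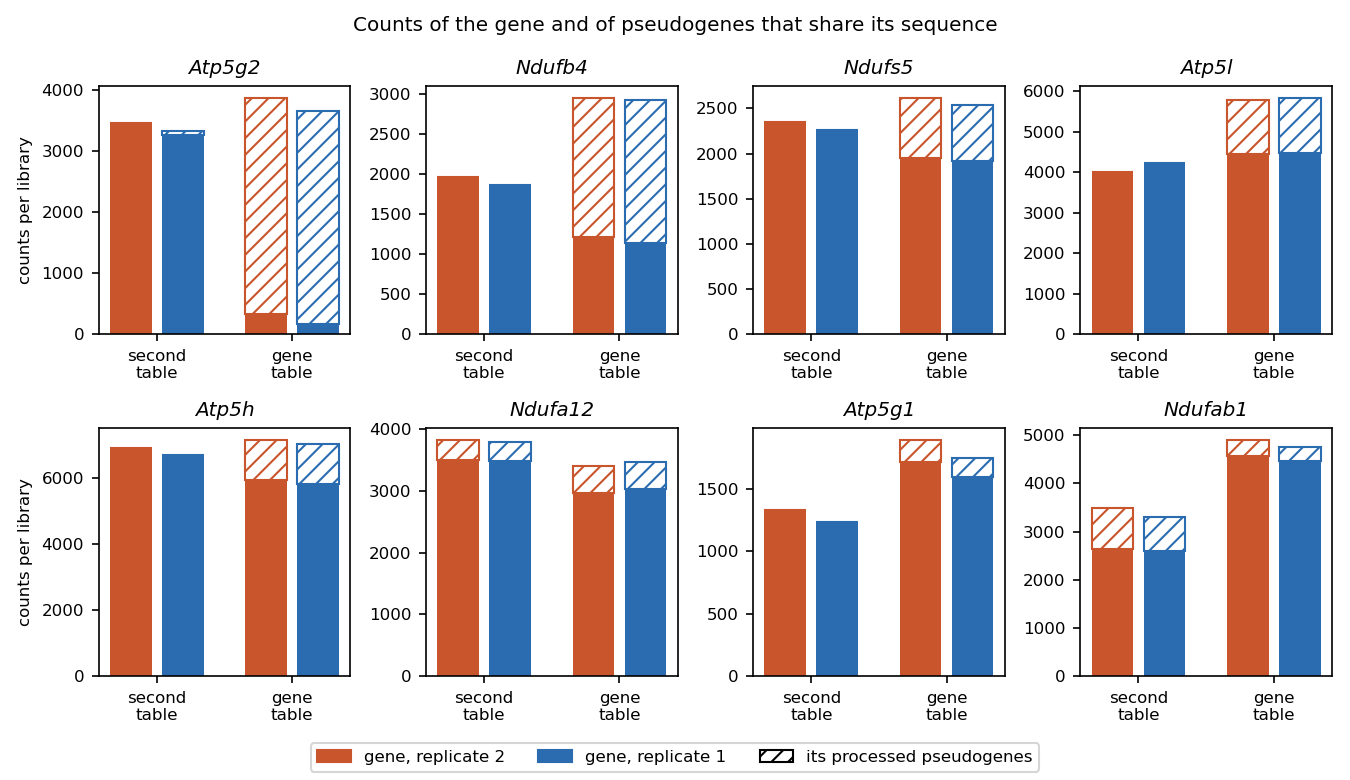
Counts per library of 8 subunit genes (filled) and of the annotated pseudogenes that share at least 100 words of 31 bases with them (hatched), in the second table and in the gene table, for replicate 2 (orange) and replicate 1 (blue). For Atp5g2 and Ndufb4 most of the gene table's bar is hatched and the second table's bar is filled. For Ndufab1 the second table holds the larger hatched share.

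The shares of the 3 c subunit genes differed between the tables accordingly. By the second table Atp5g2 supplied 37.0% of their summed TPM in replicate 2 and 36.8% in replicate 1, while the gene table gave it 4.06% in replicate 2 and 2.10% in replicate 1. Atp5g3 supplied 48.2% in replicate 2 and 48.8% in replicate 1 by the second table, and 70.3% in replicate 2 and 72.3% in replicate 1 by the gene table. Atp5g1 supplied 14.8% in replicate 2 and 14.5% in replicate 1 by the second table, and 25.6% in each library by the gene table. Atp5g3 held the largest share in both tables, while Atp5g1 and Atp5g2 exchanged places. In the gene table Atp5g3 had 243 TPM in replicate 2 and 236 in replicate 1. Atp5g1 had 88.6 TPM in replicate 2 and 83.4 in replicate 1. Atp5g2 had 14.1 TPM in replicate 2 and 6.84 in replicate 1, the one subunit whose libraries stood far apart.

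**Figure D3:**
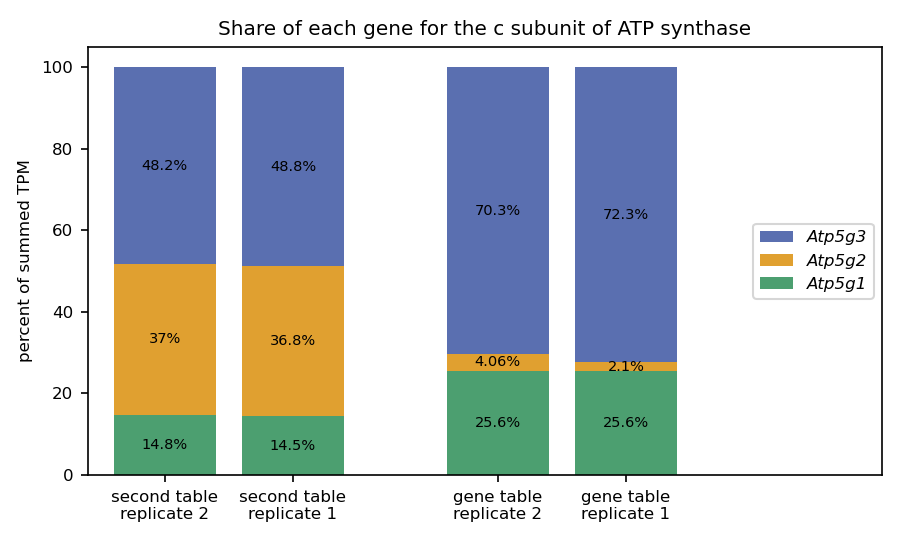
Percent of the summed TPM of Atp5g1, Atp5g2 and Atp5g3 held by each gene in replicate 2 and replicate 1, by the second table (left pair of bars) and by the gene table (right pair). The libraries nearly coincide within each table, and the share of Atp5g2 is near 37% in the second table and under 5% in the gene table.

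Ndufb4, a membrane arm accessory subunit, also shared its counts with Ndufb4c, an annotated processed pseudogene on chr15:73809507-73809896. Ndufb4c is 390 bases long, and all 390 match the coding sequence of Ndufb4, stop codon included. The first 120 coding bases of Ndufb4, on chr16:37654240-37654359 (minus strand, mm10), are given as the sequence that both loci hold.
Ndufb4: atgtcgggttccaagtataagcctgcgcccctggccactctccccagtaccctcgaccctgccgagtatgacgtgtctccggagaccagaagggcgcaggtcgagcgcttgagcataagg

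Ndufb4 had 1966 counts in replicate 2 and 1857 in replicate 1 in the second table, and 1218 in replicate 2 and 1138 in replicate 1 in the gene table. Ndufb4c had 0 in both libraries in the second table, and 1734 in replicate 2 and 1786 in replicate 1 in the gene table. Its gene table level was 161 TPM in replicate 2 and 168 in replicate 1, above the level given to Ndufb4 itself. Ndufb4 thus held 100% of the sum in the second table, and 41.3% in replicate 2 and 38.9% in replicate 1 in the gene table. The sums lay further apart than those of Atp5g2. Summed over Ndufb4 and Ndufb4c, replicate 2 had 1966 counts in the second table and 2952 in the gene table, and replicate 1 had 1857 in the second table and 2924 in the gene table. Each sum was then divided by its table's count total over nuclear protein-coding genes. The log2 ratio of the scaled sums was -0.68 in replicate 2 and -0.74 in replicate 1. For Atp5g2 it was -0.26 in replicate 2 and -0.22 in replicate 1.

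Of the 75 genes averaging 100 or more expected counts, 16 shared at least 100 words of 31 bases with an annotated pseudogene. A mean of 90% or more of the sum with the pseudogenes was held by 15 of the 16 in the second table and by 10 in the gene table. Under 80% was held by 4 in the gene table, namely Atp5g2, Ndufb4, Ndufs5 and Atp5l. Ndufs5, an accessory subunit, held 100% in both libraries in the second table, and 74.7% in replicate 2 and 75.6% in replicate 1 in the gene table. Atp5l, a membrane subunit of ATP synthase, also held 100% in the second table, and 77.0% in replicate 2 and 76.4% in replicate 1 in the gene table. Ndufab1, the mitochondrial acyl carrier protein that is also a complex I subunit, went the other way. It held 75.7% in replicate 2 and 78.7% in replicate 1 in the second table, and 93.3% in replicate 2 and 94.1% in replicate 1 in the gene table. Among all 76 genes, 35 had a main transcript with no 31-base word in another gene. Shared words were not counted for other nuclear protein-coding genes, so this sharing is not shown to be particular to these genes.

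The deposited tables also bear on short transcripts, of which these genes have many. The subunits had a median length of 711 bases, against 2407 for nuclear protein-coding genes above 1 TPM, and 26 of 64 were under 600 bases, against 2.11% of those genes. Effective length, the span in which a read can start, was the length less 329 bases in replicate 2 and 333 in replicate 1 in the second table, and less 99 in both libraries in the tables from alignments, by the median over transcripts longer than 1000 bases. Ndufa1, at 419 bases with a single transcript, had 117 effective bases in the second table and 320 in the gene table. Its counts were 713 in replicate 2 and 708 in replicate 1 in the second table, and 2207 in replicate 2 and 2090 in replicate 1 in the gene table. These counts were divided by each table's total over nuclear protein-coding genes. The log2 ratio of second to gene table was then -1.73 in replicate 2 and -1.65 in replicate 1. For its TPM, rescaled as below, it was -0.61 in replicate 2 and -0.51 in replicate 1.

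The ratio of the second table to the gene table was taken on TPM rescaled over nuclear protein-coding genes, since the tables hold different sets of entries. Over the 75 genes its median on the log2 scale was 0.03, against -0.13 over 12491 nuclear protein-coding genes. More than 2-fold higher in the second table in both libraries were 2 of the 75 genes, Atp5g2 and Ndufb4, against a background of 0.344% of nuclear protein-coding genes. None of the 75 was more than 2-fold lower in both libraries, where the background was 0.488%. For Atp5g2 the log2 ratio was 3.62 in replicate 2 and 4.62 in replicate 1, and for Ndufb4 it was 2.05 in replicate 2 and 2.03 in replicate 1. For counts, divided by the total over nuclear protein-coding genes, Atp5g2 had 3.30 in replicate 2 and 4.30 in replicate 1. Ndufb4 had only 0.59 in replicate 2 and 0.62 in replicate 1. The main Ndufb4 transcript had 148 effective bases in the second table and 872 in the gene table. By rescaled TPM, Atp5e followed with 0.98 in replicate 2 and 1.01 in replicate 1, on either side of the threshold. Atp5j2, a membrane subunit, had 0.76 in replicate 2 and 0.75 in replicate 1, and Atp5h, a stalk subunit, had 0.68 in each library. At the other end, Sdhc had -0.88 in replicate 2 and -0.86 in replicate 1. Ndufaf4 had -0.81 in replicate 2 and -0.73 in replicate 1, and Ndufa3 had -0.73 in replicate 2 and -0.75 in replicate 1. Ndufab1 had -0.60 in replicate 2 and -0.64 in replicate 1, and Ndufa1 completed the lowest 5.

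**Figure D4:**
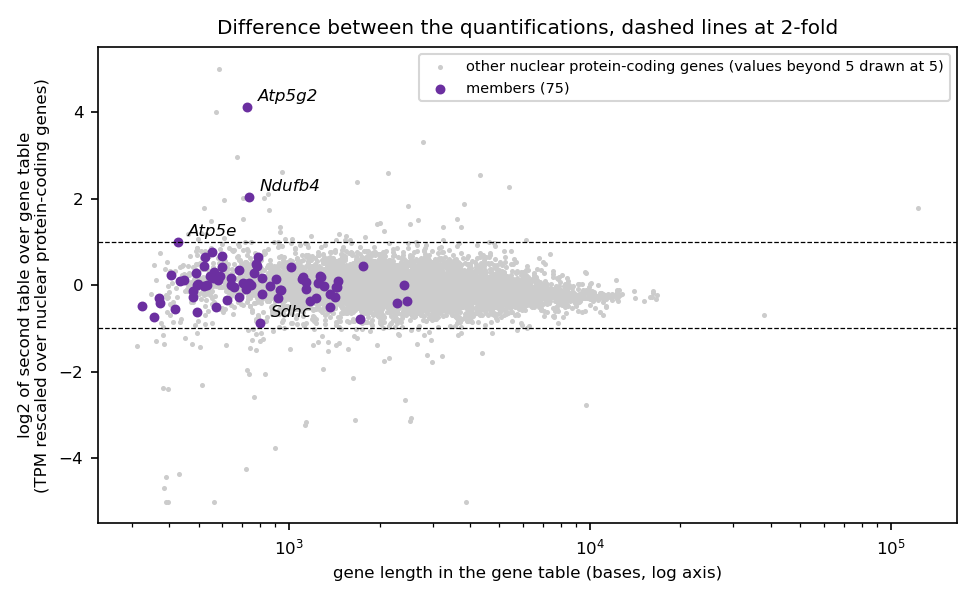
Log2 ratio of the second table to the gene table (TPM rescaled over nuclear protein-coding genes, mean of both libraries) against gene length in bases on a log axis, for the 75 genes averaging 100 or more counts (purple) and other nuclear protein-coding genes (grey, values beyond 5 drawn at 5). Atp5g2 and Ndufb4 lie above the upper 2-fold line and Atp5e on it.

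By length, the 19 genes of 450 to 600 bases had a median log2 ratio of 0.17, against 0.09 for the 147 other nuclear protein-coding genes of that length. The 17 genes of 600 to 800 bases had 0.05 against 0.01, the 14 of 800 to 1200 bases -0.06 against -0.03, and the 16 of at least 1200 bases -0.05 against -0.14. The 9 genes under 450 bases, too few for a stable median, had -0.29, as did the 50 other nuclear protein-coding genes of that length. In each of these bins the medians of rescaled TPM lay within 0.10 of each other on the log2 scale. With counts, divided by each table's total over nuclear protein-coding genes, the short bins lay further apart. Under 450 bases the medians were -0.33 against -1.26 for the other genes, and at 450 to 600 bases -0.41 against -0.24. They were -0.23 against -0.17 at 600 to 800 bases, -0.08 against -0.09 at 800 to 1200, and -0.08 against 0.03 from 1200.

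Between the libraries the levels were close. Expected counts were scaled by TMM, the trimmed mean of gene ratios. The ratio of replicate 2 to replicate 1 had a median of 0.04 on the log2 scale over the 75 genes and of -0.01 over all 13188 genes that passed this count minimum. Its median absolute log2 value was 0.04 for the 75 genes, against 0.13 for all genes and 0.10 for the 2548 nuclear protein-coding genes with at least 2190 counts, the lower quartile of the 75 genes' mean counts. In all, 74 of the 75 lay within 1.25-fold, against 81.7% of all genes. The median coefficient of variation of subunit TPM was 1.99%, and it was under 5% for 61 of 64. Of the 75 genes, 53 were higher in replicate 2 and 22 lower, against 49.0% of all genes higher. With scaling by library total 17 were higher and 58 lower, against 33.8% of all genes higher. With scaling by spike-in total 24 were higher and 51 lower, against 37.5% of all genes higher. The common direction thus depends on the scaling, which moves all genes alike.

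The 1 gene past 2-fold, of 75, was Atp5g2, against a background of 4.48% of all genes. Its ratio was 2.10 (exact binomial 95% interval 1.73 to 2.56, counting error only), a log2 ratio of 1.07. With scaling by library total it did not pass 2-fold. In the second table its counts were 3447 in replicate 2 and 3260 in replicate 1, which did not pass 2-fold. The interval that the authors' deposited table gives around its TPM was 10.1 to 19.7 in replicate 2 and 4.13 to 10.6 in replicate 1, which overlap. In the authors' deposited table the width of that interval averaged 81.5% of the TPM for Atp5g2 and 20.9% for Ndufb4, while the median over the 64 subunits was 6.85% and 59 were under 10%.

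The next highest ratios were those of the assembly factors Ndufaf6, at a log2 value of 0.15, and Ndufaf3, at 0.13. The lowest were Ndufaf5 at -0.19, Ndufa4l2 at -0.17 and Ndufaf1 at -0.15. Of the 8 assembly factors 2 were higher in replicate 2, with a median of -0.09. Of the 64 subunits 49 were, with a median of 0.04, both by TMM scaling, which placed 49.0% of all genes higher. The extremes other than Atp5g2 were genes of low level, with 259 to 815 counts per library. Liver and muscle markers differed more than 2-fold between the same libraries, while the subunits other than Atp5g2 stayed within 1.25-fold.

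**Figure D5:**
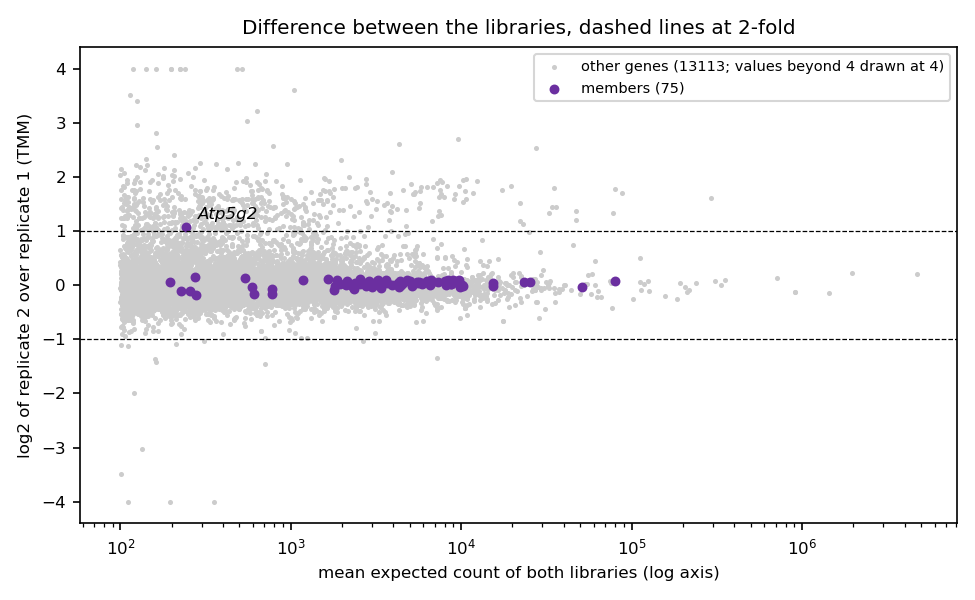
Log2 ratio of replicate 2 to replicate 1 after TMM scaling against the mean expected count (log axis) for the 75 genes with at least 100 counts (purple) and the other genes above that count (grey, values beyond 4 drawn at 4). The 75 genes lie near 0 except Atp5g2, which lies just above the 2-fold line.

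Ndufa4, the cytochrome oxidase subunit, had 578 TPM in replicate 2 and 564 in replicate 1, higher than every complex I subunit proper. Its paralog Ndufa4l2, known as a target of hypoxia signalling that is thought to take the place of Ndufa4, had 18.7 TPM in replicate 2 and 21.5 in replicate 1. Its share of the pair was 2.94% in replicate 2 and 3.78% in replicate 1 in the second table, and 3.14% in replicate 2 and 3.67% in replicate 1 in the gene table, with overlapping ranges. Atp5s, named after complex V, had 5.31 TPM in replicate 2 and 3.93 in replicate 1.

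At the transcript level the tables differed more. For the 67 genes with 2 or more annotated transcripts and at least 100 counts, the main transcript held a median of 71.7% of the gene's TPM in the second table and 80.6% in the gene table. It held over 90% for 16 genes in the second table and for 26 in the gene table, and under 50% for 14 in the second table and 6 in the gene table. The tables named the same main transcript for 43 of the 67. For the other 24, the second table's main transcript was the longer one in 19. Transcripts annotated as coding held a median of 86.1% of a gene's TPM in the second table and 94.0% in the gene table. They held under 10% for 7 genes in the second table and for 1 in the gene table. Transcript shares were not computed for other genes, so these differences between the tables are not shown to be particular to these genes.

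Complex III and complex V genes give examples. For Uqcr11 a processed transcript of 520 bases held 53.1% in the second table, where coding transcripts held 0.00%, while the coding transcript of 445 bases held 99.5% in the gene table. For Atp5k, subunit e of ATP synthase, a retained-intron transcript of 563 bases held 96.8% in the second table and the coding transcript of 371 bases held 97.8% in the gene table. Atp5j, a stalk subunit, went the other way, with 79.5% in coding transcripts in the second table and 18.2% in the gene table. For Ndufb4 coding transcripts held 7.79% in the second table and 51.5% in the gene table. These examples were chosen after their values were seen.

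The mitochondrial genome encodes the other subunits of complexes I, III and V. The median over the 10 listed was 4351 TPM in replicate 2 and 4248 in replicate 1. Cycs, the mobile cytochrome c, had 38.6 TPM in replicate 2 and 40.8 in replicate 1. Assembly factors with other names had list medians far below the medians of the complexes, although Uqcc2, a complex III factor with 50.6 TPM in replicate 2 and 59.5 in replicate 1, overlapped the lowest subunits. Those of complex I (8 of 9 listed genes found) reached a median of 16.7 TPM in replicate 2 and 16.9 in replicate 1. Those of complex II (4 genes) had 11.7 TPM in replicate 2 and 12.6 in replicate 1, and those of complex III (6 genes) 16.3 in replicate 2 and 16.7 in replicate 1. Those of complex V (3 genes) had 28.6 TPM in replicate 2 and 34.2 in replicate 1. Atpif1, the inhibitor of ATP synthase, was within the range of the subunits with 103 TPM in replicate 2 and 120 in replicate 1. The 9 listed regulators of mitochondrial genes reached a median of 20.3 TPM in replicate 2 and 20.4 in replicate 1. Ppargc1a, a coactivator that is abundant in brown fat, had 15.7 TPM in replicate 2 and 25.2 in replicate 1. No gene of these lists passed 2-fold between the libraries.

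Promoters were read from RefSeq (GRCm38.p6) from 250 bases before to 50 after each start, and 63 of the 76 genes matched an entry. Known activators of respiratory genes include NRF1, the ETS factor GABP and YY1. The NRF1 motif, GCGCN followed directly by TGCGC, was found on either strand in 18 of the 63 (28.6%), against 5.19% of 27025 genes with a promoter entry and 11.3% of 9711 other nuclear protein-coding genes above the count minimum. The ETS motif CCGGAAG was found in 15 (23.8%), against 9.93% of all entries and 19.6% of the other expressed genes. The YY1 motif, AAGAT followed directly by GGCG, was found in 8 (12.7%), against 1.64% of all entries and 3.49% of the other expressed genes. At least 1 of the 3 motifs was found in 35 of the 63 (55.6%), against 15.1% of all entries and 30.6% of the other expressed genes. A match is a description of letters and not of binding.

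Stretches before the start of Sdhd and Atp5h are shown because their windows upstream of the start held 2 kinds of motif, the most found there, in genes of high level, with the motifs in capitals, both lying as reverse complements. That of Sdhd is chr9:50603877-50603940 and that of Atp5h chr11:115419939-115420072, both on the minus strand. In each, the first run of capitals is the NRF1 motif and the second the ETS motif.
Sdhd: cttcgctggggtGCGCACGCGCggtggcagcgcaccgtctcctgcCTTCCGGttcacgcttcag
Atp5h: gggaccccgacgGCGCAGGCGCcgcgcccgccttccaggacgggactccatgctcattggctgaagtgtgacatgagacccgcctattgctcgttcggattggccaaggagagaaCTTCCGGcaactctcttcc

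In Sdhd the motifs begin 79 and 46 bases before the start and in Atp5h 141 and 38 bases before it. No promoter of the 63 genes held all 3 motifs, which were found together in 0.037% of all entries and 0.082% of the other expressed genes.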

How the data were processed

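Per the labels and the deposited file notes, the authors quantified each library against mm10 and GENCODE M21 in 2 ways, without pooling replicates. The gene and first transcript tables, made from transcriptome alignments, give expected counts, TPM and the authors' deposited bounds of TPM. The second transcript tables, made by the authors from reads and an index, give estimated counts and TPM. No tool is named in the sources used here. The authors' deposited percent of each transcript was recomputed as a share of gene TPM. Lengths and effective lengths are other deposited columns, in bases.

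From these, transcripts of the second table were summed by gene. The edgeR package (4.0.16) gave TMM factors for the expected counts, 0.5 counts were added for log2 ratios, and a minimum mean of 100 counts was set. Ratios past 2-fold were counted, with no p-value. Entries that are not annotated genes, mostly spike-ins, took 0.879% of counts in replicate 2 and 0.892% in replicate 1 and were left out. The computations were tested on simulated data. Alternatives used DESeq2 1.42.0 size factors, library and spike-in totals, other thresholds and each library alone. Words of 31 bases were compared between GENCODE transcripts, requiring 100 shared words for a pseudogene pair. Further software was R 4.3.3 and Python 3.11.15 with scipy 1.17.1 for intervals, pandas 2.3.3 and numpy 2.4.6 for tables, and matplotlib 3.10.9 for plots.

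The genes, lists and rules were chosen with earlier results of these data known. Named were core, complex II, complex III, F1, c subunit and Ndufaf genes, Ndufa4, Ndufa4l2, the 3 highest and 3 lowest accessory subunits, genes under 1 TPM, and the extreme ratios (3 each way between libraries, 5 each way between tables). A gene that the rule takes is not reported here. Other named genes serve as examples chosen after their values were seen.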

Additional observations from a re-analysis of the deposited data

How the results depend on the processing

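No paired analysis was possible because the libraries form a single group. Detection held at 71 to 75 genes. Complex III over I (log2, main 1.23) became 1.13 with means of log2 values and 1.42 with all genes of the name rule, and 1.18 to 1.27 with either library alone. Complex V over I (main 0.59) became 0.38 and 0.70 in the same settings and 0.86 in the second table without Atp5g2 and Ndufb4, an alternative chosen after seeing the data, and 0.52 to 0.66 with either library alone. Complex II over I (main 0.54) became 0.23 in the second table, 0.24 there without those genes and 0.73 with all genes of the name rule, and 0.48 to 0.61 with either library alone. The cause was not tested.

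Between libraries, the count past 2-fold (main 1) became 0 with library totals and 0 in the second table, and 2 with no filter beyond 3 counts, which admits the second Atp5o locus. The median log2 ratio (main 0.04) became -0.041 with library totals and -0.020 with spike-in totals. There 17 and 24 genes were higher in replicate 2 in place of 53, and 33.8% and 37.5% of all genes in place of 49.0%. Library totals moved the median of all genes to -0.08 and spike-in totals to -0.06. The genes' median exceeded that of all genes by 0.04, a difference that no scaling can change, since each shifts every gene alike.

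Between tables, the count past 2-fold higher (main 2) became 15 with TPM as deposited, 7 at 1.5-fold and 1 with counts. Beside these stood 8.46%, 1.73% and 0.232% of nuclear protein-coding genes in the same settings. With either library alone the count was 2 to 3. In the setting with counts, these were divided by each table's total over nuclear protein-coding genes. There only Atp5g2 passed, while Ndufb4 had log2 ratios of 0.59 in replicate 2 and 0.62 in replicate 1. The count lower (main 0) became 2 with counts (Ndufa1, Ndufa2) and 4 at 1.5-fold, beside 0.552% and 2.21% of those genes, and stayed 0 with either library alone. The median log2 ratio (main 0.03) became 0.80 with TPM as deposited, where that of all nuclear protein-coding genes was 0.63. With counts it became -0.15, where that of all nuclear protein-coding genes was 0.02. The genes' median thus lay below that of all such genes with counts, and above it with rescaled TPM (0.03 against -0.13). With either library alone it was 0.0066 to 0.036. The main transcript share (80.6%) became 71.7% in the second table, 80.1% to 80.7% with either library alone. The Atp5g2 share (3.08%) became 36.9% in the second table, and 2.10% to 4.06% with either library alone.

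Depth limits the low genes: Ndufaf2 had 217 counts in replicate 2 and 235 in replicate 1, with a counting interval of 0.765 to 1.12 around its ratio.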

Other observations

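Ndufb1-ps, annotated as a bidirectional promoter lncRNA and so outside the protein-coding rule, had 67.2 TPM in replicate 2 and 67.8 in replicate 1. Its counts were 1238 in replicate 2 and 1245 in replicate 1 in the second table, and 1100 in replicate 2 and 1091 in replicate 1 in the gene table.

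Transcript shares of Atp5g3 differed between the libraries in the second table although its gene level did not. A coding transcript of 723 bases held 89.6% of the gene's TPM in replicate 2 and 0.722% in replicate 1, and another coding transcript of 714 bases held 0% in replicate 2 and 82.5% in replicate 1. In the gene table the 714-base transcript held 70.6% in replicate 2 and 66.0% in replicate 1. Over the 67 genes with 2 or more transcripts, the main share differed by more than 10 points between the libraries for 10 genes in the second table. In the gene table it did so for 1, Atp5s. Other genes were not counted.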
